A study of Homo sapiens with 38 samples.

Results

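The comparison described here asks what silencing VPS4A adds in cells in which VPS4B is already silenced, with the second pair of siRNA duplexes of the study. It sets the 4 siVPS4A+B#2 libraries against the 4 siVPS4B#2 libraries, which is 8 of the 38 libraries of the series, and it covers all 12627 genes of the deposited table in both directions. The libraries were taken by their labels, but the comparison and the gene lists were chosen with earlier results of these data known. All libraries come from HCT116, a line of human colorectal carcinoma cells grown in RPMI medium with fetal bovine serum. The cells of each arm compared here were transfected with Lipofectamine RNAiMAX. The siVPS4A+B#2 cells received 30 nM of siVPS4A#1 and 30 nM of siVPS4B#2. The siVPS4B#2 cells received 30 nM of siVPS4B#2 and 30 nM of the non-targeting duplex siCTRL#1, so that both arms carried the same VPS4B duplex and the same total dose and differed by siVPS4A#1 in place of siCTRL#1. RNA was collected 72 h after transfection. Other arms serve only for comparison: siCTRL#1 at 60 nM (5 libraries), siVPS4A#1 at 30 nM with 30 nM of siCTRL#1 (5 libraries), and the first pair, siVPS4A+B#1 (siVPS4A#2 with siVPS4B#1, 30 nM each, 4 libraries) with its own comparator siVPS4B#1 (30 nM with 30 nM of siCTRL#1, 4 libraries). Levels of a few genes are also given for siVPS4A#2 at 30 nM with 30 nM of siCTRL#1 (4 libraries). Non-transfected cells (4 libraries) and a second non-targeting duplex, siCTRL#2 (4 libraries), are not compared but enter the fit of all 9 conditions. VPS4A is silenced by 1 duplex in this comparison, so an effect of losing VPS4A and any other effect of siVPS4A#1 cannot be told apart within it.

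VPS4A and VPS4B are paralogous AAA ATPases that take apart the ESCRT-III filaments assembled on endosomes, at the midbody during cytokinesis, on the resealing nuclear envelope and at damaged membranes. Cells without this activity hold ubiquitinated cargo and receptors in endosomes instead of sorting them into multivesicular bodies, and HCT116 cells express both paralogs. In cells of this kind the transcription factor NF-kB answers to signalling from TNF family receptors through the inhibitor NFKBIA (canonical branch) or through the kinase MAP3K14, also called NIK, and RELB (noncanonical branch), and NRF2, AP-1, p53, ATF4 and the sterol regulator SREBP-2 each drive a known set of target genes.

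The 8 libraries held 5090666 to 9601719 reads on the listed genes, so that 3 reads, taken here as the floor, were worth 0.312 to 0.589 reads per 1000000. Levels are given as RPM, the reads per 1000000 of a library total multiplied by its TMM factor, which corrects for the share taken by a few abundant genes. Floors and intervals cover counting error only, because amplification makes several reads of 1 molecule. In each of the 8 the expression profile correlated best with the other libraries of its own condition (r = 0.47 to 0.86 over 9555 genes, centred on the mean of all libraries). Replicate 1 of siVPS4B#2 was the lowest of these, and its summed level of ATF4 target genes was 8986 RPM against 3294 to 4055 in the other siVPS4B#2 libraries. Among the comparison arms, the library labelled siVPS4A#1 replicate 2 went against its label. It held 669257 reads, its profile had r = -0.10 with the other siVPS4A#1 libraries, and it held 1 read of VPS4B (1.62 RPM, against 21.6 to 32.0 in the other siVPS4A#1 libraries) and 7 reads of VPS4A (11.3 RPM, against 1.64 to 3.51). Its profile was closest to that of siVPS4A+B#1 (r = 0.65). Counts and tests that use the siVPS4A#1 arm are therefore given with and without it, the second being an alternative chosen after seeing the data. Colon epithelial markers were present, with 6118 to 6990.3 RPM summed over 10 genes in siVPS4A+B#2 and 5567 to 7512 in siVPS4B#2. Of the 6 measured markers of fibroblasts, muscle, endothelium and macrophages, PDGFRB, PECAM1 and CSF1R had mean levels under 1 RPM in both groups. COL1A1, which encodes a fibrillar collagen chain, rose (log2 fold change 1.13 ± 0.25 SE, limma, adjusted p = 0.000703), and the 6 together summed to 69.5 to 111 against 39.0 to 54.5 RPM. In RNA from whole cultures, fewer cells that express a gene and less of its RNA per cell cannot be told apart.

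VPS4A (GRCh37 chr16:69345253-69360842, plus strand) checks the labels. It had 18, 36, 27 and 42 reads in replicates 1 to 4 of siVPS4A+B#2 and 1527, 2165, 1374 and 1751 reads in those of siVPS4B#2, or 3.07, 7.75, 4.32 and 5.10 RPM in siVPS4A+B#2 and 239, 223, 205 and 170.0 in siVPS4B#2. All 4 silenced libraries were far below the others, and VPS4A RNA stood at 2.42% of its siVPS4B#2 mean (difference -5.16 on the log2 scale, exact two-sided permutation p = 0.0286, the smallest that 4 against 4 allows). VPS4B (GRCh37 chr18:61056423-61089716, minus strand) had 9, 7, 8 and 7 reads in siVPS4A+B#2 and 6, 7, 7 and 16 in siVPS4B#2. The groups overlapped (difference 0.16, exact permutation p = 0.400) and both were low, at 6.29% and 5.18% of the siCTRL#1 mean. In siVPS4B#2 alone VPS4A RNA stood at 111% of the siCTRL#1 mean.

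With siVPS4A#1 added, 1502 genes rose (11.9% of the 12627 tested) and 1601 fell (12.7%), counting genes that limma, with the replicate number as a block, gave an adjusted p under 0.05 and that changed 1.5-fold or more. Fold changes are on the scale of log2(RPM + 1), which understates changes of genes with few reads, and a rise or fall by 1 log2 unit is a doubling or halving. The median log2 fold change was 0.83 among the genes that rose and -0.87 among those that fell, against -0.01 over all genes. Changes of at least 2-fold were met by 478 of the genes that rose and 541 of those that fell, and changes of at least 8-fold by 8 and 2. The 4 libraries of one group lay apart from the 4 of the other for 1262 of the genes that rose and 1311 of those that fell, and over all genes, called or not, 14.4% lay wholly higher and 14.4% wholly lower. All 4 replicate pairs moved the same way for 1435 and 1492. The split depended on scaling: 1502 of 3103 calls were higher with TMM scaling (48.4%), and 1081 of 3126 without it (34.6%), where the median of all genes moved to -0.10. The genes that rose had a median level of 25 RPM in siVPS4B#2 and those that fell 19, beside 20.6 over all genes.

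The largest rise was that of HMOX1 (GRCh37 chr22:35776354-35790207, plus strand), which encodes the inducible heme oxygenase that opens the heme ring and frees its iron. HMOX1 was measured at 2660.2, 4357, 5447 and 3183 RPM in siVPS4A+B#2 and 74.5, 71.5, 89.98 and 60.3 in siVPS4B#2, groups that lay far apart in every pair (log2 fold change 5.66 ± 0.27, adjusted p = 2.72e-17). Next came genes at the end of NF-kB signalling. BIRC3 (GRCh37 chr11:102188215-102210134, plus strand) encodes cIAP2, a ubiquitin ligase of TNF receptor complexes, and was at 223, 310.0, 287 and 242 RPM in siVPS4A+B#2 and 8.14, 8.95, 9.72 and 10.3 in siVPS4B#2 (log2 fold change 4.69 ± 0.54, adjusted p = 3.95e-08). TNFRSF9 (GRCh37 chr1:7975931-8003225, minus strand), the receptor also known as 4-1BB, was near the floor in siVPS4B#2 and rose in all pairs, from 0.313, 0.412, 1.35 and 1.07 to 34.4, 38.5, 67.2 and 29.0 RPM (log2 fold change 4.57 ± 0.60, adjusted p = 3.56e-07). CXCL8 (GRCh37 chr4:74606236-74609433, plus strand), the neutrophil-attracting chemokine IL-8, was at 98.2, 101, 56.8 and 101 RPM in siVPS4A+B#2 and 2.19, 4.53, 3.74 and 3.59 in siVPS4B#2 (log2 fold change 4.31 ± 0.69, adjusted p = 8.98e-06), again with no overlap.

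CPA4, a secreted carboxypeptidase, followed with 214, 240.5, 216 and 202 RPM in siVPS4A+B#2 and 5.95, 13.6, 17.8 and 12 in siVPS4B#2 (log2 fold change 4.12 ± 0.39, adjusted p = 9.06e-10). RELB, the partner of p52 in noncanonical NF-kB, was at 122, 128, 118 and 98.4 RPM in siVPS4A+B#2 and 10.2, 15.4, 15.5 and 9.90 in siVPS4B#2 (log2 fold change 3.12 ± 0.33, adjusted p = 5.67e-09). SQSTM1 encodes p62, a ubiquitin-binding autophagy receptor that also binds KEAP1, and stood at 5645, 6961, 8771 and 4803 RPM in siVPS4A+B#2 and 793, 807, 932 and 657 in siVPS4B#2 (log2 fold change 3.01 ± 0.33, adjusted p = 1.26e-08). In each of these 3 genes the lowest siVPS4A+B#2 library was above the highest siVPS4B#2 library. KRTAP3-1, a keratin-associated protein of hair, rose by 2.96 log2 units and HKDC1, a hexokinase-like protein, by 2.85 on the log2 scale. Their siVPS4B#2 levels, pooled over both genes, ran from 0.470 to 9.08 RPM, and the lower end was at the floor.

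**Figure D1:**
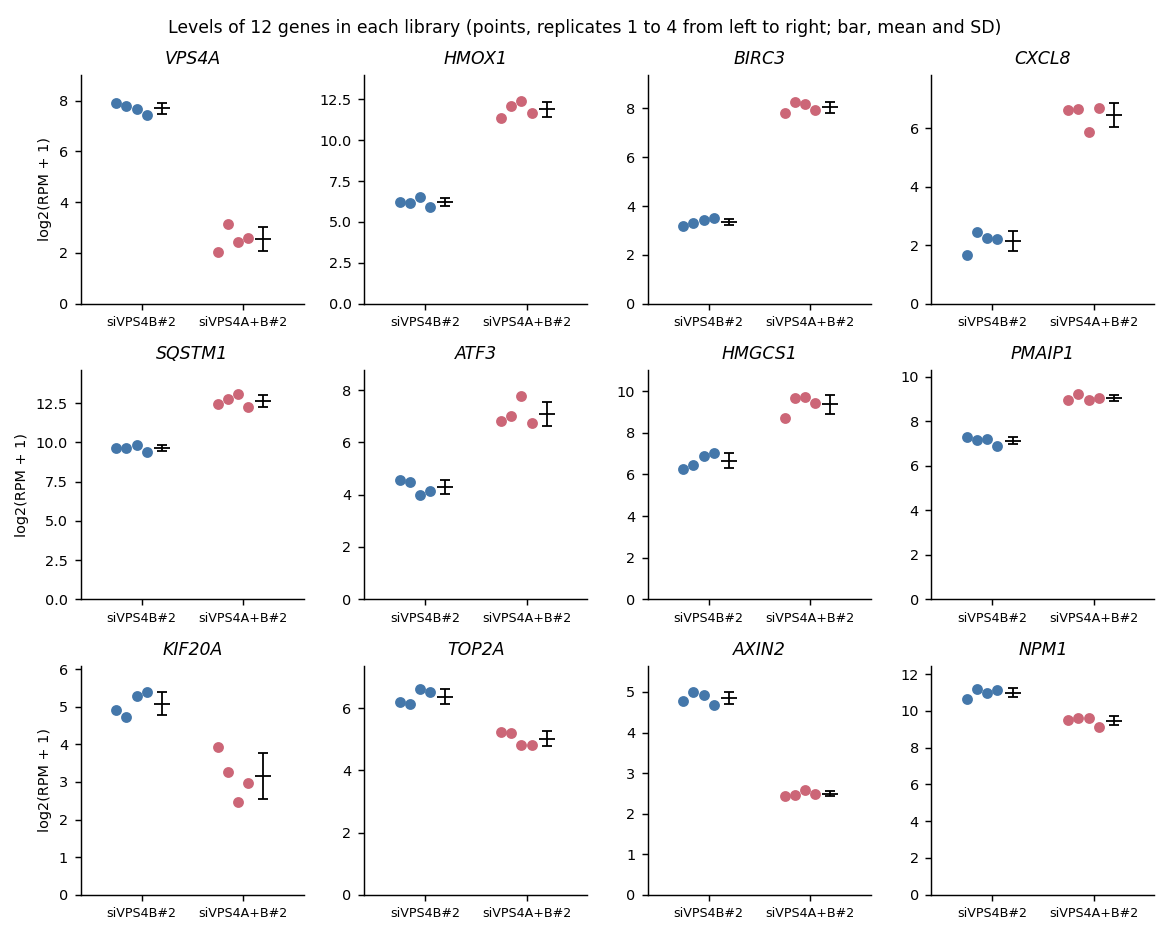
Levels of 12 genes in the 8 libraries, as log2(RPM + 1), with the points of each group in the order of replicates 1 to 4 and the bar giving the mean and SD of the group. VPS4A is the silenced gene. For the other 11 genes the groups do not overlap, with HMOX1, BIRC3, CXCL8, SQSTM1, ATF3, HMGCS1 and PMAIP1 higher and KIF20A, TOP2A, AXIN2 and NPM1 lower in siVPS4A+B#2.

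Of the 24 measured genes for NF-kB subunits, activators and inhibitors, 18 rose and 0 fell, against 11.9% and 12.7% of all genes, with a median log2 fold change of 0.86. Their summed level was 2034 to 2324 RPM in siVPS4A+B#2 and 732 to 797 in siVPS4B#2. Among subunits, RELB rose most, followed by NFKB2 (1.76), which gives p100 and p52, NFKB1 (1.17), which gives p105 and p50, and RELA (0.90), while REL missed the test (0.51, adjusted p = 0.132). Of the activators, MAP3K14 was at 21.5, 31.4, 27.4 and 40.9 RPM in siVPS4A+B#2 and 8.61, 4.63, 8.97 and 9.03 in siVPS4B#2 and rose without overlap (log2 fold change 1.83 ± 0.30, adjusted p = 1.54e-05). IKBKG, the NEMO subunit of the IkB kinase complex, rose by 1.03 log2 units from near the floor, 0.448 to 1.07 RPM in siVPS4B#2. The log2 fold changes of the catalytic subunits were 0.28 for IKBKB and -0.11 for CHUK, neither past the test. Inhibitors rose as well: NFKBIA was at 364, 323, 258 and 377 RPM in siVPS4A+B#2 and 73.6, 70.7, 71.0 and 57.3 in siVPS4B#2 (log2 fold change 2.25 ± 0.27, adjusted p = 7.56e-08), and TNFAIP3 (A20), TNIP1, NFKBIE and CYLD rose by 1.44, 1.37, 1.09 and 0.72 log2 units. BIRC2, the paralog of BIRC3, rose by 1.14 log2 units, and the adaptors TRAF2 and TRAF3 by 0.82 and 0.59. BCL3, NFKBIZ and TRAF1 did not pass (0.30, 0.02 and -0.06). TRAF3 lost its call with DESeq2 size factors, with no TMM scaling and with only the conditions of the contrast fitted. It was also not called without the library labelled siVPS4A#1 replicate 2. CYLD (0.65 without replicate 3 and 0.66 without replicate 4) and TRAF3 (0.55 without replicate 1, 0.45 without replicate 2 and 0.55 without replicate 4) were no longer called on leaving out 1 replicate number (log2 fold changes in brackets).

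The promoters of 4 of the genes that rose are shown because each holds the letters GGGANTTTC of the kB motif, in capitals. The motif was searched on both strands from 250 bases before to 50 bases after the start of each gene in RefSeq's table of build GRCh38.p14, in which 10205 of the tested genes were found. HMOX1 and RELB were not matched.
NFKBIA: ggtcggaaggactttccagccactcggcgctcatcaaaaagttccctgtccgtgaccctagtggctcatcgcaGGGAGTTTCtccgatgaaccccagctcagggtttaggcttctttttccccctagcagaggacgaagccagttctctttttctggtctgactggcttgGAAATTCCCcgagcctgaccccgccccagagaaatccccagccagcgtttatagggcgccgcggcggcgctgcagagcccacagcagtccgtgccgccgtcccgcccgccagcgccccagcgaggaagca
TNFRSF9: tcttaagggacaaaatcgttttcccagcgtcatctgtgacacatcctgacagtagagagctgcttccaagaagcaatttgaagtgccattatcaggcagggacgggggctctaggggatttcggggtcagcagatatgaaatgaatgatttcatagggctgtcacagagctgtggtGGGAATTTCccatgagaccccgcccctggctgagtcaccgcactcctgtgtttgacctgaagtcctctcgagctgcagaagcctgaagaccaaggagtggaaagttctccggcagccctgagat
CXCL1: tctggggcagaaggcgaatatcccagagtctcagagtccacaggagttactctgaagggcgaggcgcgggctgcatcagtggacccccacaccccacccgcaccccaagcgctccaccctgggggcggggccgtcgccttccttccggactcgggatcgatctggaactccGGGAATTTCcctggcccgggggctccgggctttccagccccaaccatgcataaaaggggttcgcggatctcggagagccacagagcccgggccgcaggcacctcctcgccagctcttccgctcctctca
IL32: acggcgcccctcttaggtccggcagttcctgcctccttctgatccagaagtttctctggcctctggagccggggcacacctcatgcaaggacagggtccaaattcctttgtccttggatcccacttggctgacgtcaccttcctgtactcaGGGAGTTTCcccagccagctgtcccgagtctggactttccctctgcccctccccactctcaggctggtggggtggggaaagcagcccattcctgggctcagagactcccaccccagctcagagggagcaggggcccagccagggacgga
They lie at chr14:35404700-35404999 (minus strand, NFKBIA), chr1:7940790-7941089 (minus strand, TNFRSF9), chr4:73869143-73869442 (plus strand, CXCL1) and chr16:3065153-3065452 (plus strand, IL32). The match nearest the start began 80, 74, 79 and 99 bases before the start. The motif was in 1.30% of all promoters of this length in the table, 1.18% of those of tested genes, 1.95% of those of genes that rose and 1.08% of those of genes that fell. Of the 21 matched promoters of the list of NF-kB subunits, activators and inhibitors, 6 held it. NFKBIA held 2 matches and the others 1 each. A match is a description of letters, not of a bound site.

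Of the 18 measured secreted inflammatory mediators and adhesion genes, 10 rose and 0 fell, beside 11.9% and 12.7% of all genes. The median was 0.71 (0.83 with genes near the floor at their bounds). Of the 5 that are left when genes under a mean of 5 RPM are not tested, 4 rose. After CXCL8 came IL32, a cytokine of epithelial and immune cells, at 7.50, 7.10, 10.9 and 5.95 RPM in siVPS4A+B#2 and 0.940, 0.823, 0.448 and 0.582 in siVPS4B#2 (log2 fold change 2.36 ± 0.52, adjusted p = 0.000548). The neutrophil chemokines CXCL1 and CXCL2 rose by 1.81 and 1.70 log2 units, while CXCL3 had a log2 fold change of 0.49 and did not pass. IL18, which is made as a precursor and cut by caspase-1, was at 517, 465, 756 and 508 RPM in siVPS4A+B#2 and 179, 291, 179 and 186 in siVPS4B#2 (log2 fold change 1.43 ± 0.23, adjusted p = 7.17e-06). CSF1, a growth factor of macrophages, rose by 1.25 log2 units, LIF by 1.01 and IL1A by 0.66. TNF and CSF2 rested on few reads, and the call of TNF was lost with DESeq2 (adjusted p = 0.258). TNF had 20 reads in the 4 siVPS4A+B#2 libraries against 2 in the 4 siVPS4B#2 libraries, a ratio of summed reads, scaled to the library totals, of 12.2 (95% counting interval, exact binomial, 2.97 to 108), and CSF2 30 against 3, a ratio of 12.2 (3.80 to 62.5). ICAM1, an NF-kB target on endothelium and epithelium, had a log2 fold change of 0.30, CCL5 one of 0.15 and PTGS2 one of -0.38, none past the test. IL1A (0.71 without replicate 3 and 0.59 without replicate 4) and TNF (0.59 without replicate 1 and 0.54 without replicate 2) were no longer called on leaving out 1 replicate number (log2 fold changes in brackets).

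TNF receptor family members were split, with 8 of 20 higher and 4 lower (median 0.25), and 5 and 4 without TMM scaling. Over all genes 11.9% were higher and 12.7% lower. Besides TNFRSF9, the TRAIL receptors TNFRSF10A and TNFRSF10B rose by 1.08 and 0.70 log2 units, the decoy receptors TNFRSF10D and TNFRSF6B by 0.99 and 1.03, and FAS, a death receptor, by 0.62. TNFRSF12A, the receptor of TWEAK, rose by 0.60 log2 units, and the log2 fold change of TNFRSF1A, the main TNF receptor of epithelium, was 0.45 and missed the test. NGFR, the low-affinity neurotrophin receptor, fell by 2.34 log2 units, from 105, 57.8, 59.6 and 54.3 to 15.5, 11.6, 8.96 and 14.2 RPM, with no overlap. TNFRSF1B, TNFRSF19 and TNFRSF10C fell from low levels. The ratio of siVPS4B#2 to siVPS4A+B#2 reads, scaled in the same way, was 4.59 (1.75 to 15.2, 95% counting interval) for TNFRSF1B and 3.17 (1.43 to 7.99) for TNFRSF19. Without replicate 1, or without replicate 2, 2 of the family fell in place of 4. FAS, TNFRSF10B and TNFRSF12A were not called without TMM scaling. TNFRSF12A was also not called with DESeq2 or without the library labelled siVPS4A#1 replicate 2. TNFRSF19 was not called with only the conditions of the contrast fitted. TNFRSF10B (0.48 without replicate 2), TNFRSF6B (0.71 without replicate 1), FAS (0.46 without replicate 3 and 0.53 without replicate 4), TNFRSF12A (0.58 without replicate 1, 0.51 without replicate 2 and 0.55 without replicate 4), TNFRSF1B (-0.47 without replicate 2 and -0.63 without replicate 3), TNFRSF19 (-0.57 without replicate 1 and -0.50 without replicate 2) and TNFRSF10C (-0.64 without replicate 1, -0.48 without replicate 2 and -0.55 without replicate 4) were no longer called on leaving out 1 replicate number (log2 fold changes in brackets).

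In the BCL2 family, the caspases and the death adaptors, 14 of 35 rose and 3 fell (median 0.35), beside 11.9% and 12.7% of all genes. Both sides of the balance were among those that rose. The pro-apoptotic BH3-only gene PMAIP1 (NOXA) was at 492, 607, 489 and 522 RPM in siVPS4A+B#2 and 156, 141, 147 and 117 in siVPS4B#2 (log2 fold change 1.91 ± 0.21, adjusted p = 1.69e-08), without overlap. BIK rose by 1.34 log2 units, BBC3 (PUMA) by 0.80 and BCL2L11 (BIM) by 0.77, and the pore-forming BAK1 and BOK by 1.19 and 1.0. Of the protective members, MCL1 was at 157, 130.2, 216 and 111 RPM in siVPS4A+B#2 and 53.2, 68.5, 48.7 and 45.3 in siVPS4B#2 (log2 fold change 1.47 ± 0.15, adjusted p = 6.75e-09), BCL2L2 (BCL-w) rose by 1.37 log2 units, BCL2 by 0.65, and CFLAR, the catalytically inactive relative that holds back caspase-8, by 1.57. BCL2L1 (BCL-xL) and BAX had log2 fold changes of 0.11 and 0.30 and did not pass. BCL2 was not called without TMM scaling (adjusted p = 0.0579). The caspases moved both ways: CASP8 rose by 0.79 log2 units, and CASP6 and CASP2 fell (log2 fold changes -0.91 and -0.65). BMF, a BH3-only gene, fell by 0.79 log2 units. It was not called with no replicate block (adjusted p = 0.0673) or a pseudocount of 0.1 (0.0526). In necroptosis and pyroptosis, MLKL, the executor of necroptosis, rose by 0.60 log2 units (3.41, 5.38, 5.76 and 3.64 RPM in siVPS4A+B#2 and 1.10, 2.68, 3.29 and 4.08 in siVPS4B#2, with overlap), and RIPK1, GSDMD and GSDME had log2 fold changes of -0.24, -0.03 and -0.36, none past the test. The call of MLKL was also lost with edgeR (adjusted p = 0.063), DESeq2 (0.0647), no replicate block (0.0551) and no TMM scaling (0.0844). BBC3 (0.72 without replicate 3), BCL2 (0.51 without replicate 1, 0.64 without replicate 3 and 0.66 without replicate 4), BMF (-0.49 without replicate 1 and -0.75 without replicate 3) and MLKL (0.44 without replicate 1, 0.52 without replicate 2 and 0.56 without replicate 3) were no longer called on leaving out 1 replicate number (log2 fold changes in brackets).

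Of 23 measured antioxidant targets of NRF2, 13 rose and 0 fell (median 0.66), beside 11.9% and 12.7% of all genes. GCLM, the modifier subunit of the enzyme that starts glutathione synthesis, was at 119, 174, 182 and 168 RPM in siVPS4A+B#2 and 18.9, 21.4, 28.3 and 32.9 in siVPS4B#2 (log2 fold change 2.63 ± 0.30, adjusted p = 2.69e-08), and its catalytic partner GCLC rose by 1.87 log2 units. SLC7A11, which imports cystine for glutathione, rose by 1.28 log2 units, although replicate 1 of siVPS4B#2 (186 RPM, against 44.7 to 71.7 in the other 3) overlapped with siVPS4A+B#2 (221, 184, 212 and 139.6). SRXN1, OSGIN1 and AKR1B10 rose by 1.94, 1.88 and 1.57 log2 units, and the NADPH-forming ME1 and PGD by 2.01 and 0.93. FTH1, the heavy chain of the iron store ferritin, rose by 1.62 log2 units, and FTL, the light chain, had a log2 fold change of 0.55 and did not pass (adjusted p = 0.105, fold under 1.5). NQO1 rose by 0.66 log2 units, TXNRD1 had a log2 fold change of 0.27, and NFE2L2, which encodes NRF2 itself, at -0.31, neither of the last past the test. The 23 genes took 29831 to 42962 RPM in siVPS4A+B#2 and 12739 to 14716 in siVPS4B#2. Without TMM scaling NQO1 had a log2 fold change of 0.55 and was not called. SLC7A11 (0.95 without replicate 3) and NQO1 (0.53 without replicate 3) were no longer called on leaving out 1 replicate number (log2 fold changes in brackets).

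Of 42 lysosomal and autophagy genes, 14 rose (33.3%, beside 11.9% of all genes) and 1 fell, with a median of 0.31. Autophagy receptors and ATG8 proteins were among them, with log2 fold changes of 1.60 for OPTN, 0.71 for CALCOCO2 (NDP52) and 1.22 for GABARAPL1, while NBR1 (0.29) and TAX1BP1 (-0.40) did not pass. LGALS8, a galectin that marks damaged endosomes, rose by 1.28 log2 units. The cholesterol exporter of lysosomes, NPC1, was at 126, 112, 185 and 84.8 RPM in siVPS4A+B#2 and 39.2, 49.0, 45.0 and 50.3 in siVPS4B#2 (log2 fold change 1.40 ± 0.24, adjusted p = 2.36e-05), with the groups apart. The hydrolases GLA, CTSD, CTSL and CTSA rose by 1.41, 0.90, 0.77 and 0.68 log2 units, and LIPA, the acid lipase, fell by 0.74 log2 units. Without TMM scaling CTSA had a log2 fold change of 0.56 and was not called. TFE3, a transcription factor of lysosomal genes, rose by 1.10 log2 units, and its relatives TFEB and MITF had log2 fold changes of -0.24 and -0.23. CALCOCO2 (0.57 without replicate 4) and CTSL (0.56 without replicate 3) were no longer called on leaving out 1 replicate number (log2 fold changes in brackets).

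Immediate-early and AP-1 genes had the highest median of the 22 lists, 1.14. Of these 23 genes 15 were higher and 1 lower, beside 11.9% and 12.7% of all genes. ATF3 was at 113, 127, 219.6 and 106 RPM in siVPS4A+B#2 and 22.9, 21.3, 14.9 and 16.6 in siVPS4B#2, without overlap (log2 fold change 2.79 ± 0.36, adjusted p = 3.26e-07). The AP-1 subunits FOSL2, JUNB, FOSL1, FOSB and JUND rose by 1.82, 1.76, 1.67, 1.21 and 1.14 log2 units, whereas JUN (0.36) and FOS (-0.60) did not pass. The zinc finger factors KLF6, KLF4 and KLF2 rose by 1.90, 1.69 and 0.91 log2 units, and MYC by 1.39. Among the MAP kinase phosphatases, which switch off MAP kinases, DUSP1, DUSP5 and DUSP4 rose by 1.66, 1.53 and 1.47 log2 units, and DUSP6 fell by 1.01 log2 units from 319, 151, 195 and 279.8 to 163, 108, 67.7 and 133 RPM. EGR1 had a log2 fold change of -0.42 and did not pass. KLF2 was not called with no replicate block (adjusted p = 0.119), no TMM scaling (0.107) or a pseudocount of 0.1 (0.0518). DUSP6 was not called with no replicate block (adjusted p = 0.0647). The AP-1 motif TGANTCA stood in 4.55% of the promoters of tested genes, 7.89% of those of genes that rose and 2.55% of those of genes that fell, and in 7.76% of all promoters in the table. Of the 17 matched promoters of the list of AP-1 and immediate-early genes, 1 held it. KLF2 (1.03 without replicate 1, 0.98 without replicate 3 and 0.81 without replicate 4) and DUSP6 (-1.03 without replicate 1, -0.86 without replicate 3 and -1.0 without replicate 4) were no longer called on leaving out 1 replicate number (log2 fold changes in brackets).

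Several secreted and receptor genes of growth control accompanied these: of 16 measured, 5 rose and 0 fell (median 0.31). Over all genes 11.9% rose and 12.7% fell. The plasminogen activators PLAU and PLAT rose by 0.90 and 0.70 log2 units and the urokinase receptor PLAUR by 1.45. HBEGF, an EGF receptor ligand, rose by 1.5 log2 units, and the receptors EGFR, ERBB2 and MET had log2 fold changes of 0.29, -0.31 and 0.03, none past the test. Without replicate 4, 3 of these genes rose. PLAU (0.84 without replicate 1, 0.93 without replicate 3 and 0.95 without replicate 4) and PLAT (0.55 without replicate 4) were no longer called on leaving out 1 replicate number (log2 fold changes in brackets).

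Of 36 genes of sterol and fatty acid synthesis and uptake, 19 rose and 2 fell (median 0.66), beside 11.9% and 12.7% of all genes. HMGCS1, which makes HMG-CoA for the mevalonate pathway, was at 419, 816, 832 and 687 RPM in siVPS4A+B#2 and 75.3, 87.0, 116 and 132 in siVPS4B#2 (log2 fold change 2.72 ± 0.38, adjusted p = 1.06e-06), with the groups apart. The later enzymes FDPS, MSMO1, IDI1, MVD and SQLE rose by 2.10, 1.92, 1.53, 1.48 and 1.0. The feedback gene INSIG1 rose by 1.86 log2 units. Of the fatty acid genes, FASN and ACLY rose by 1.23 and 0.77 log2 units, and SCD had a log2 fold change of 0.46 and did not pass. MYLIP, a ubiquitin ligase induced by sterols, fell by 0.85 log2 units, ABCA1, a cholesterol exporter, had a log2 fold change of -0.77 (adjusted p = 0.0848), and ABCG1 one of -0.46. TM7SF2, a sterol reductase, fell by 0.99 log2 units. The regulators SREBF2 and SREBF1 had log2 fold changes of 0.35 and -0.07, neither past the test. SQLE (0.74 without replicate 3), ACLY (0.55 without replicate 3), MYLIP (-0.84 without replicate 1) and TM7SF2 (-1.03 without replicate 1 and -1.07 without replicate 3) were no longer called on leaving out 1 replicate number (log2 fold changes in brackets).

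Interferon-stimulated and antigen presentation genes rose in 15 of 34 cases and fell in 2 (median 0.57), beside 11.9% and 12.7% of all genes. ISG15, a ubiquitin-like modifier, was at 1016, 865, 765 and 674 RPM in siVPS4A+B#2 and 323, 241, 186 and 143 in siVPS4B#2 (log2 fold change 1.94 ± 0.20, adjusted p = 3.54e-09), without overlap. OAS1, IFI44 and IFIT5 rose by 1.44, 1.36 and 1.21 log2 units, and the RNA sensors RIGI and IFIH1 by 0.93 and 0.91. The factors IRF1 and IRF7 rose by 1.06 and 0.89 log2 units. In antigen presentation B2M, TAP1 and TAP2 rose by 0.78, 0.74 and 0.80 log2 units, while HLA-B and HLA-C had log2 fold changes of 0.30 and 0.06 and the immunoproteasome gene PSMB9 and the class I regulator NLRC5 fell (log2 fold changes -0.87 and -0.75). HLA genes are near-identical in part, so reads could be split between them. MX1 and IFIT1 had log2 fold changes of -0.30 and -0.27, neither past the test. IRF7 (0.56 without replicate 4), TAP2 (0.57 without replicate 4) and NLRC5 (-0.79 without replicate 1 and -0.58 without replicate 3) were no longer called on leaving out 1 replicate number (log2 fold changes in brackets).

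On the falling side stood the cell cycle. Of 40 genes of mitosis and cytokinesis, 33 fell and 0 rose, against 12.7% of all genes that fell, with a median of -1.02. KIF20A, a kinesin of the central spindle, was at 14.3, 8.61, 4.48 and 6.80 RPM in siVPS4A+B#2 and 29.3, 25.6, 37.7 and 41.0 in siVPS4B#2 (log2 fold change -1.92 ± 0.23, adjusted p = 6.72e-08). PLK1, the mitotic kinase, was at 36.7, 41.8, 32.7 and 49.8 RPM in siVPS4A+B#2 and 99.8, 70.8, 158 and 147 in siVPS4B#2 (log2 fold change -1.49 ± 0.26, adjusted p = 3.56e-05), and CCNB1, the mitotic cyclin, at 47.1, 37.9, 41.1 and 37.4 RPM in siVPS4A+B#2 and 62.6, 80.8, 103 and 108 in siVPS4B#2 (log2 fold change -1.07 ± 0.21, adjusted p = 0.000165). The groups were apart for all 3 genes. CEP55, which recruits ESCRT proteins to the midbody, fell by 1.38 log2 units, and so did the spindle checkpoint genes BUB1 and BUB1B (log2 fold changes -1.31 and -1.07). Of the 7 that did not pass, UBE2C had a log2 fold change of -0.01, KIF23 one of -0.25 and BIRC5 one of -0.49. The size of the drop varied between the pairs, with a median of -0.41 in replicate 1, -0.64 in replicate 2, -1.55 in replicate 3 and -1.26 in replicate 4, and without replicate 3 the count of genes that fell was 20 in place of 33.

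DNA replication genes fell in 24 of 45 cases with a median of -0.64, and 1 rose. Over all genes 12.7% fell and 11.9% rose. RRM2, the regulated subunit of ribonucleotide reductase, was at 88.1, 112, 129 and 65.0 RPM in siVPS4A+B#2 and 158, 189, 284 and 269 in siVPS4B#2 (log2 fold change -1.19 ± 0.22, adjusted p = 7.04e-05). GINS4 and PRIM1 fell (log2 fold changes -1.26 and -1.12), as did the helicase genes MCM2, MCM3 and MCM5 (-0.64, -0.73 and -0.65) and BRCA1 and BRCA2, which act in homologous recombination (-1.19 and -1.06). The call of MCM5 was also lost with edgeR (adjusted p = 0.0712), DESeq2 (0.0658), no replicate block (0.133) and a pseudocount of 0.1 (0.051). The gene that rose was CCNE1, cyclin E1 (log2 fold change 0.78). TYMS and TK1, both of thymidylate supply, had log2 fold changes of -0.14 and -0.02 and did not pass. Of 39 measured replication-dependent histone genes, 29 fell and 0 rose (median -0.91), among them H4C4 and H2BC4 (log2 fold changes -1.74 and -1.68), and 19 fell without replicate 3. Histone genes are near-identical copies, so their amplicon reads may be split uncertainly. The median per pair was -0.66, -0.58, -1.63 and -0.98 in replicates 1 to 4. MCM2 (-0.39 without replicate 3 and -0.62 without replicate 4), MCM3 (-0.49 without replicate 3) and MCM5 (-0.30 without replicate 2, -0.80 without replicate 3 and -0.56 without replicate 4) were no longer called on leaving out 1 replicate number (log2 fold changes in brackets).

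The promoters of 2 mitotic genes that fell are shown because they hold the pair of motifs that promoters of mitotic genes are known for, the CHR element TTTGAA and a CCAAT box, both in capitals and searched on both strands.
PLK1: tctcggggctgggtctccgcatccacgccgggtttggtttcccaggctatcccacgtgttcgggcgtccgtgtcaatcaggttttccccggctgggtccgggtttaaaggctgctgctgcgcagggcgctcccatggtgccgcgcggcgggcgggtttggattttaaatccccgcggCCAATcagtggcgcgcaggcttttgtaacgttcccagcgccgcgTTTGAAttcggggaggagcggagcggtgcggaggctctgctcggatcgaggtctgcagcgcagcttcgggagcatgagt
CCNB2: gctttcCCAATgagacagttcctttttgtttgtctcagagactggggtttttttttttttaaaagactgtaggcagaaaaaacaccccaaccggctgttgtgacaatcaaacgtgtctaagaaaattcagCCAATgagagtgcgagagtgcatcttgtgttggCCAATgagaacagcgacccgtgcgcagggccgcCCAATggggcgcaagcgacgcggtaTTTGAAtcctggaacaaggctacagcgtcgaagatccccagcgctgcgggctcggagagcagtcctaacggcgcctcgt
They lie at chr16:23678639-23678938 (plus strand, PLK1) and chr15:59104896-59105195 (plus strand, CCNB2). CCNB2, a second mitotic cyclin, fell by 1.02 log2 units. Both motifs together were in 20 of the 33 promoters of the mitosis list that were matched, in 4.10% of the promoters of tested genes, 8.03% of those of genes that fell and 3.31% of those of genes that rose, and in 6.08% of all promoters in the table. The E2F motif TTTNGCGC was in 16 of the 38 of the replication list, against 2.95% of those of tested genes and 1.83% of all promoters.

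**Figure D2:**
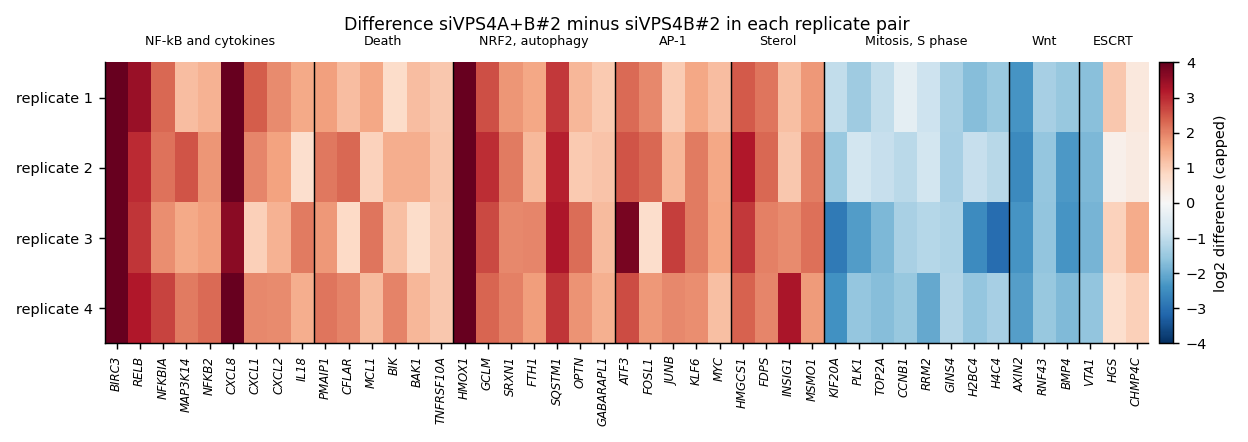
Difference between siVPS4A+B#2 and siVPS4B#2 in log2(RPM + 1) for each replicate pair (vertical axis) and 45 genes of the groups described (horizontal axis), with red for higher and blue for lower in siVPS4A+B#2 and colours saturating at 4 and -4. NF-kB, NRF2 and AP-1 genes are red in all 4 pairs, and the mitotic genes are paler in replicates 1 and 2 than in replicates 3 and 4.

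Targets of Wnt signalling fell in 6 of 15 cases and rose in 2 (median -0.54), beside 12.7% and 11.9% of all genes. AXIN2, the feedback inhibitor induced by beta-catenin, was at 4.43, 4.52, 4.96 and 4.61 RPM in siVPS4A+B#2 and 26.6, 31.2, 29.4 and 24.8 in siVPS4B#2 (log2 fold change -2.36 ± 0.15, adjusted p = 1.91e-14), the groups far apart. RNF43, which removes Wnt receptors, fell by 1.49 log2 units, and BMP4, EPHB3, SP5 and NKD1 fell too (log2 fold changes -1.99, -1.10, -0.95 and -0.70). The 2 that rose were MYC and the secreted Wnt antagonist DKK1 (1.75), and CCND1 and SOX9 had log2 fold changes of -0.15 and 0.00. SP5 was not called with a pseudocount of 0.1 (adjusted p = 0.165). SP5 (-0.87 without replicate 1, -0.85 without replicate 3 and -1.13 without replicate 4) was no longer called on leaving out 1 replicate number (log2 fold changes in brackets).

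The genes with the largest falls apart from VPS4A belonged mostly to none of these groups. MYBPH, a myosin-binding protein, had 2 to 6 reads in siVPS4A+B#2 and 10.2, 32.9, 38.9 and 23.1 RPM in siVPS4B#2, a ratio of 48.2 (95% counting interval 29.1 to 86.5). PRR15L had 0 to 1 reads per library against 18 to 63, a ratio of 68.8 (18.7 to 573). MAN2B2, a lysosomal mannosidase, was at 9.72, 11, 13 and 10.9 RPM in siVPS4A+B#2 and 83.8, 94.1, 75.3 and 63.6 in siVPS4B#2 (log2 fold change -2.71 ± 0.29, adjusted p = 9.79e-09). TMT1A, a methyltransferase, and DHRS2, a dehydrogenase, fell (log2 fold changes -2.71 and -2.64), as did IGFBP3, which binds insulin-like growth factors (-2.47). ABAT, the GABA transaminase, was at 4.77, 6.89, 4.64 and 4.86 RPM in siVPS4A+B#2 and 43.9, 36.4, 29.3 and 23.3 in siVPS4B#2 (log2 fold change -2.42 ± 0.22, adjusted p = 5.29e-10). The siVPS4A+B#2 libraries were all below the siVPS4B#2 libraries for each of these genes.

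Of 26 ATF4 targets, 5 rose (19.2%) and 2 fell (7.69%), beside 11.9% and 12.7% of all genes (median 0.27). The siVPS4B#2 libraries differed widely here: ASNS, asparagine synthetase, was at 169, 49.0, 30.3 and 82.7 RPM in them and at 122, 88.0, 91.9 and 81.4 in siVPS4A+B#2, and CHAC1, a glutathione-degrading enzyme, at 329.8, 51.4, 22.6 and 46.0 and 129.6, 83.3, 80.05 and 65.2, with replicate 1 of siVPS4B#2 highest in both. PCK2, the mitochondrial PEP carboxykinase, and PHGDH, the first enzyme of serine synthesis, fell (log2 fold changes -1.44 and -0.65), and STC2, ATF5, SESN2 and SARS1 rose by 0.88, 0.86, 0.85 and 0.74 log2 units. The counts of higher and lower genes were 6 and 1 without replicate 1, 3 and 2 without replicate 2, 0 and 2 without replicate 3, 3 and 1 without replicate 4, and 3 and 3 without TMM scaling. STC2 was not called with DESeq2 (adjusted p = 0.0863), no replicate block (0.113), no TMM scaling (0.0605) or a pseudocount of 0.1 (0.0501). PHGDH lost its call with no replicate block (adjusted p = 0.167) and ATF5 without TMM scaling (0.065). PHGDH (-0.54 without replicate 1 and -0.52 without replicate 4), STC2 (0.74 without replicate 3 and 0.95 without replicate 4), ATF5 (0.63 without replicate 2, 0.86 without replicate 3 and 0.73 without replicate 4), SESN2 (0.77 without replicate 2 and 0.52 without replicate 3) and SARS1 (0.43 without replicate 3) were no longer called on leaving out 1 replicate number (log2 fold changes in brackets).

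Of 22 genes for chaperones of the endoplasmic reticulum and the unfolded protein response, 1 rose (4.55%) and 5 fell (22.7%), with a median of -0.20. Over all genes 11.9% rose and 12.7% fell. Without TMM scaling 8 of the 22 fell. CALR, calreticulin, was at 920.3, 1441, 1247 and 1302 RPM in siVPS4A+B#2 and 2549.9, 2363, 2892 and 2537 in siVPS4B#2 (log2 fold change -1.09 ± 0.17, adjusted p = 5.55e-06). PDIA4, MANF and HSP90B1 fell (log2 fold changes -0.88, -0.72 and -0.63), the co-chaperone DNAJB9 rose by 0.95 log2 units, and HSPA5 (BiP) and XBP1 had log2 fold changes of -0.21 and -0.08. In the cytosol, 5 of 15 heat shock genes rose and 0 fell (median 0.43), namely HSPA1A (1.32), HSPA1B (1.09), DNAJB1 (1.11), BAG3 (0.73) and DNAJB4 (0.65). HSPA1A and HSPA1B are near-identical and their reads may be split uncertainly. DNAJB4 was not called without TMM scaling (adjusted p = 0.0673). BAG3 (0.57 without replicate 2 and 0.55 without replicate 4) and DNAJB4 (0.61 without replicate 1, 0.58 without replicate 3 and 0.61 without replicate 4) were no longer called on leaving out 1 replicate number (log2 fold changes in brackets).

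Of 24 p53 targets, 9 rose and 1 fell (median 0.46), beside 11.9% and 12.7% of all genes. CDKN1A, the cyclin-dependent kinase inhibitor p21, was at 2295, 2442, 1709 and 2028 RPM in siVPS4A+B#2 and 1259.5, 1040.2, 1281 and 1089.8 in siVPS4B#2 (log2 fold change 0.85 ± 0.18, adjusted p = 0.000436). PLK2, PLK3, GDF15 and ZMAT3 rose by 1.23, 1.05, 1.03 and 0.97 log2 units, and TP53INP1 fell by 0.68 log2 units. MDM2, the ligase that degrades p53, had a log2 fold change of 0.15, and TP53I3 one of -0.05, neither past the test. TP53INP1 (-0.68 without replicate 1 and -0.57 without replicate 2) was no longer called on leaving out 1 replicate number (log2 fold changes in brackets).

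Among the 37 ESCRT genes and partners, 2 rose and 2 fell (5.41% each way, beside 11.9% and 12.7% of all genes), and the median was 0.11 (-0.01 without TMM scaling, where the sign flips). The genes that fell were VPS4A, the target itself, and VTA1, the activator that binds VPS4. VTA1 was at 17.2, 17.9, 21.8 and 23.6 RPM in siVPS4A+B#2 and 57.6, 65.2, 81.6 and 72.1 in siVPS4B#2 (log2 fold change -1.73 ± 0.19, adjusted p = 1.09e-08), all 4 libraries below the others. Those that rose were HGS, a subunit of ESCRT-0 (0.71), and CHMP4C, an ESCRT-III subunit of the abscission checkpoint (0.80), and 4 rose without replicate 2. The remaining ESCRT-III genes had log2 fold changes between -0.34 (CHMP2A) and 0.52 (CHMP2B), and TSG101 and PDCD6IP (ALIX) had log2 fold changes of 0.06 and 0.37. Of 30 genes of ribosome biogenesis, 8 rose and 1 fell (median 0.35). RRP12 and RRS1 rose by 1.91 and 1.11 log2 units, and the gene that fell was NPM1, nucleophosmin, at 728, 775, 795 and 557 RPM in siVPS4A+B#2 and 1628, 2326, 2027 and 2239.8 in siVPS4B#2 (log2 fold change -1.52 ± 0.23, adjusted p = 4.54e-06). CHMP4C (0.55 without replicate 3) was no longer called on leaving out 1 replicate number (log2 fold changes in brackets).

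To see whether the effect of siVPS4A#1 depended on VPS4B, it was compared with the effect of the same duplex in cells with VPS4B, siVPS4A#1 against siCTRL#1, which shares no library with it. There 926 genes rose (7.33%) and 1503 fell (11.9%), and 1208 (9.57%) and 1574 (12.5%) without the library labelled siVPS4A#1 replicate 2. Of the 1502 genes that rose in siVPS4B#2 cells, 443 also rose there, which is 29.5% of the one list and 47.8% of the other (439, 29.2% and 36.3% without that library). Of the 1601 that fell, 777 also fell there, 48.5% and 51.7% of the lists (770 without it).

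The difference between both effects was tested gene by gene. The effect of siVPS4A#1 was higher in siVPS4B#2 cells than in siCTRL#1 cells for 733 genes (5.81%) and lower for 492 (3.9%), and for 1217 (9.64%) and 1090 (8.63%) without the library labelled siVPS4A#1 replicate 2. These counts depended on single replicates: without replicates 1, 2, 3 and 4 in turn they were 232, 1105, 196 and 371 higher and 137, 965, 128 and 267 lower. The largest differences were those of HMOX1 (4.33 ± 0.36, adjusted p = 8.14e-10), BIRC3 (3.90), TNFRSF9 (3.70), CXCL8 (3.21) and SLC7A11 (3.14), and without that library they were 4.75, 4.90, 4.79, 4.50 and 3.54. SLC7A11 rose in siVPS4B#2 cells by less than its difference, so the difference also holds a fall with siVPS4A#1 in siCTRL#1 cells. Its call in siVPS4B#2 cells was lost without replicate 3 (log2 fold change 0.95, limma, adjusted p = 0.083). BIRC3 had log2 fold changes of 0.79 with siVPS4A#1 in siCTRL#1 cells and -0.23 without that library, and 4.69 in siVPS4B#2 cells. On the other side were MYBPH (-3.73), TMT1A (-3.14), PRR15L (-2.66), SPARC (-2.63) and INPP5D (-2.20), and without that library -4.32, -3.57, -2.93, -3.57 and -2.48. SPARC, a secreted matrix protein, varied in siVPS4A+B#2 (18.6, 9.47, 1.92 and 24.6 RPM, against 30.5, 28.0, 32.1 and 31.6). Its call in siVPS4B#2 cells (log2 fold change -1.50) was lost with no replicate block (adjusted p = 0.0583) and without replicates 1, 3 or 4 (adjusted p = 0.0779, 0.39 and 0.0577).

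By groups, 12 of the 24 NF-kB genes had a higher effect in siVPS4B#2 cells and 0 a lower one (19 and 0 without the library labelled siVPS4A#1 replicate 2), beside 5.81% and 3.9% of all genes. In siCTRL#1 cells 2 of them rose and 2 fell (0 and 4 without it). Of the NRF2 targets, 12 of 23 had a higher and 1 a lower effect (14 and 1 without it), of the sterol genes 17 of 36 and 1 (26 and 4), and of the AP-1 genes 9 of 23 and 0 (14 and 0). These counts depended on the fit: with only the conditions of the contrast in it, the effect was higher for 4 NF-kB, 8 NRF2, 9 sterol and 7 AP-1 genes, and under limma's treat, which tests against a fold of 1.5, for 1, 3, 1 and 1. Without replicates 1, 3 and 4 in turn it was higher for 3, 4 and 5 NF-kB genes. HMGCS1 had a log2 fold change of 0.56 in siCTRL#1 cells (-0.11 without that library) and one of 2.72 in siVPS4B#2 cells.

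The cell cycle and ATF4 groups had another pattern. Of all genes, 7.33% rose and 11.9% fell in siCTRL#1 cells, and the effect differed upward for 5.81% and downward for 3.9%. In siCTRL#1 cells 39 of the 40 mitosis genes fell, with a median of -1.79 (-1.94 without that library) beside -1.02 in siVPS4B#2 cells, and the effect was higher, here meaning a smaller drop, in siVPS4B#2 cells for 13 and lower for 0 (30 and 0 without it). Replication genes fell in 42 of 45 cases and histone genes in 34 of 39, with medians of -1.27 and -1.72 (42 and 33 without it, medians -1.37 and -1.61). Of the 26 ATF4 targets, 0 rose and 21 fell in siCTRL#1 cells (22 without it, median -1.39), and the effect was higher in siVPS4B#2 cells for 19 (20 without it). CHAC1 had a log2 fold change of -2.86 in siCTRL#1 cells (-3.17 without it) and 0.41 in siVPS4B#2 cells, and ASNS one of -2.96 (-3.17) and 0.48. p53 targets went the other way: 15 of 24 rose in siCTRL#1 cells (16 without it), and the effect was lower in siVPS4B#2 cells for 6 and higher for 1 (11 and 1 without it). CDKN1A rose by 1.76 log2 units there (1.95 without it) and by 0.85 in siVPS4B#2 cells. Fitted on the conditions of the contrast only, the effect was higher for 4 mitosis genes and 11 ATF4 targets and lower for 2 p53 targets, and with no replicate block these were 9, 16 and 5. Under limma's treat they were 0, 5 and 0.

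**Figure D3:**
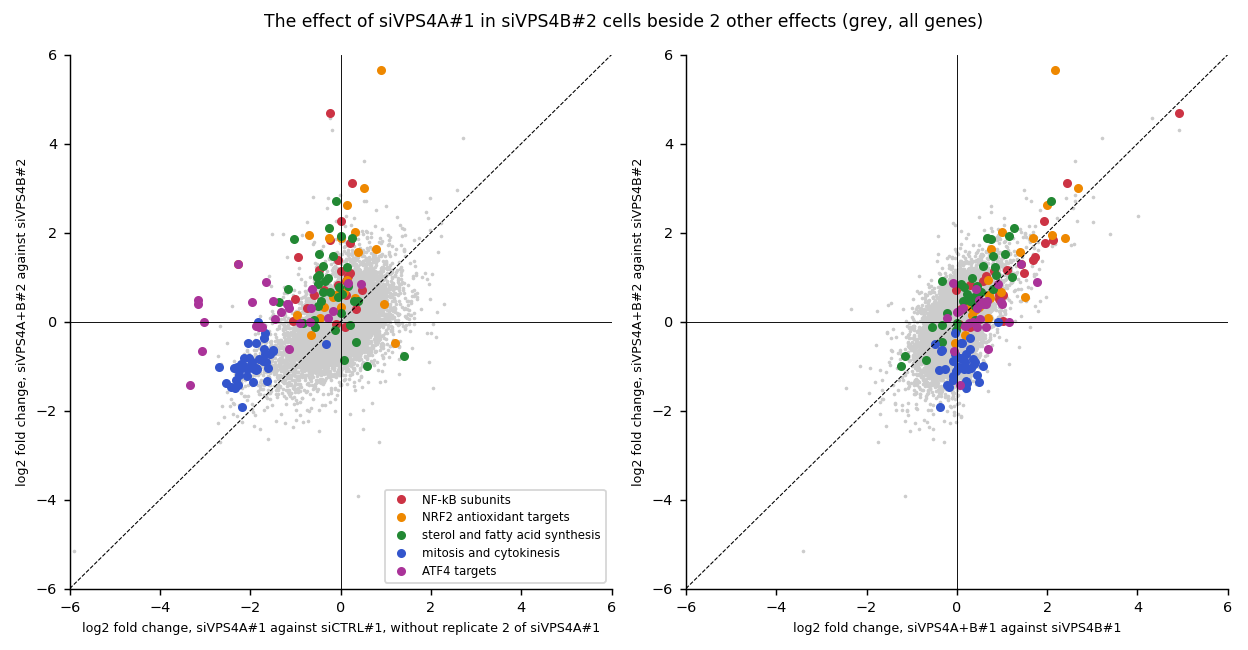
Log2 fold change of siVPS4A+B#2 against siVPS4B#2 (vertical axis, both panels) beside that of siVPS4A#1 against siCTRL#1 without the library labelled siVPS4A#1 replicate 2 (left, horizontal axis) and of siVPS4A+B#1 against siVPS4B#1 (right, horizontal axis), with all genes in grey, 5 gene lists in colour and the dashed line marking equal effects. NF-kB genes stand above the line on the left and along it on the right, and mitosis genes lie low on both axes on the left and near 0 on the horizontal axis on the right.

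The same question was put to the cells with other duplexes in the first pair, in which siVPS4A#2 was added to siVPS4B#1, again with no shared library. There VPS4A fell by 3.42 on the log2 scale, to 10.7 to 33.9 RPM, which is above the 3.07 to 7.75 of siVPS4A+B#2. In the first pair 527 genes rose (4.17%) and 403 fell (3.19%). Of the 1502 genes that rose in the second pair, 367 rose there too, which is 24.4% of the one list and 69.6% of the other, and 3 fell. Of the 1601 that fell, 215 fell there, 13.4% and 53.4%. The signed effect was higher in the second pair for 373 genes (2.95%), of which 299 had also risen in the second pair, and lower for 554 (4.39%), of which 466 had also fallen there. Without replicates 1, 2, 3 and 4 in turn these were 129, 471, 77 and 102 and 200, 691, 127 and 140, and 681 and 922 without the library labelled siVPS4A#1 replicate 2, which enters the fit through the shared spread.

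Genes of the NF-kB list rose in 16 of 24 cases in the first pair and fell in 0. The difference between the pairs passed for 0 of the 24, beside 2.95% of all genes upward and 4.39% downward. With edgeR, and also with DESeq2, it passed upward for 1 of the 24 and downward for 1. A difference that did not pass does not show that the effects were equal. BIRC3 rose by 4.91 log2 units in the first pair and 4.69 in the second, CXCL8 by 4.91 and 4.31, and TNFRSF9 by 4.32 and 4.57. NRF2 targets rose in 16 of 23 cases, with HMOX1 at 2.18 against 5.66, the largest difference between the pairs (3.48 ± 0.38, adjusted p = 5.4e-07). AP-1 genes rose in 13 of 23 cases and fell in 1, secreted inflammatory genes in 7 of 18 and 1, and sterol genes in 10 of 36 and 2, beside the 4.17% and 3.19% of all genes in that pair. After HMOX1 the largest positive differences were in VGF (2.33), a secreted neuropeptide precursor, HMGA2 (2.31), a chromatin protein, CCND3 (2.22), cyclin D3, and FKBP14 (1.95), a prolyl isomerase of the endoplasmic reticulum. CCND3 was at 91.4, 102, 135 and 97.6 RPM in siVPS4A+B#2 and 27.7, 26.1, 21.2 and 17.1 in siVPS4B#2.

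The pairs also differed in cell cycle genes. In the first pair 0 of the 40 mitosis genes fell and 1 rose (median 0.12), beside 3.19% and 4.17% of all genes in that pair. The effect was lower in the second pair for 26 and higher for 0, beside 4.39% and 2.95% of all genes. Without replicates 1, 2, 3 and 4 in turn it was lower for 13, 25, 4 and 5. For replication genes these were 15 lower and 0 higher of 45, and for histone genes 7 and 0 of 39. KIF20A had a log2 fold change of -0.37 in the first pair and -1.92 in the second, and TOP2A, topoisomerase II alpha, at 0.49 and -1.35. Of the 34 interferon-stimulated and antigen presentation genes, 7 rose and 2 fell in the first pair, beside 4.17% and 3.19% of all genes in that pair. The effect was higher in the second pair for 7 and lower for 0 (higher for 4, 8, 2 and 0 without replicates 1, 2, 3 and 4 in turn). The largest negative differences were in MYBPH (-2.78), MAN2B2 (-2.42), WNK1 (-2.25), a kinase of ion transport, CDC42SE2 (-2.24) and SPOPL (-2.23).

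A few genes were lower in both arms with siVPS4A#1 and not in those with siVPS4A#2. The 3 given here, MAN2B2, VTA1 and NPM1, were singled out after their values were seen. The median level of MAN2B2 was 11 RPM in siVPS4A+B#2 and 15.1 in siVPS4A#1, against 84.3 in siVPS4A+B#1, 84.9 in siVPS4A#2 and 96.3 in siCTRL#1 (difference between the pairs -2.42, adjusted p = 0.000342). That of VTA1 was 19.8 and 22.4, against 72.0, 61.7 and 61.3 (-1.69, adjusted p = 0.00015). That of NPM1 was 751 and 433, against 1483, 1511 and 1575 (-1.72, adjusted p = 0.00119). The siVPS4A#1 medians are over 5 libraries, with the one that went against its label. Without it the log2 fold changes of siVPS4A#1 against siCTRL#1 were -2.67 for MAN2B2, -1.56 for VTA1 and -1.78 for NPM1. Which property of the duplexes goes with these falls was not tested.

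Counted over the genes, 120 of the 1502 that rose also rose with both siVPS4A#1 alone and the first pair, 247 with the first pair and not with siVPS4A#1 alone, 323 with siVPS4A#1 alone and not with the first pair, and 812 with neither. Of the 1601 that fell, these were 88, 127, 689 and 697. Without the library labelled siVPS4A#1 replicate 2, 73 rose in all 3 comparisons and 769 in neither of the others, and 68 fell in all 3 and 684 in neither of the others. Missing a threshold in one arm does not show that the arms differ, and the tests of the difference are those given above.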

How the data were processed

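RNA of 38 HCT116 libraries was amplified with an AmpliSeq panel of 1 short amplicon per gene and sequenced on an Ion Proton with several samples per chip. The chip of each library is not given in the sources used here. The authors mapped reads with TMAP 5.0.4 to the panel's hg19 transcripts and counted them per gene. The submitters' processing notes name HTSeq 0.6.0 and DESeq2 1.18.1. In the deposited table each value is a signal, namely the fraction of all reads of its library that fell on a gene, over 12627 genes. All 38 columns were matched to samples by title, and none holds a comparison of the authors. RefSeq identifiers were given symbols for 12471 genes.

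The share that 1 read is worth was found from low values (100% of them whole within 0.1 reads), and reads were recovered, 5090666 to 9601719 in the 8 libraries and 669257 to 11035293 in all 38. Of a library's values, 17.3 to 99.7% were printed finely enough for that check at any size. Since the values are shares, limma 3.58.1 (R 4.3.3) on log2(RPM + 1) was the main test, with TMM factors of edgeR 4.0.16, 9 conditions, the replicate number as a block and an intensity trend. Adjusted p-values are Benjamini-Hochberg values over all 12627 genes. The labels give each replicate number its own batch letter, so the numbers pair the samples (correlation of the pairs' deviations 0.27, -0.14, 0.07 and 0.22, replicates 1 to 4). The series' text calls the replicates biological.

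Genes named are VPS4A, VPS4B, the 10 largest changes each way among called genes with groups apart and 4 of 4 pairs alike, members of 22 lists, and 5 genes each way in each of 2 tests of a difference between effects. The comparison and the lists were chosen with earlier results of these data known. List members that were not measured are not analysed here, and some genes that the rule names are not reported here. Levels are not scaled to length and are not compared between genes. Positions are from GENCODE v44 lifted to GRCh37, promoters from RefSeq (GRCh38.p14). Single levels were compared by exact permutation in Python 3.11.15. The fits were tested on simulated data. Alternatives were edgeR's quasi-likelihood test and DESeq2 1.42.0 on the recovered reads, limma's treat, no replicate block, other scalings, filters, pseudocounts and folds, and leaving out replicates. The siRNA sequences are not shown.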

Additional observations from a re-analysis of the deposited data

Results flagged for a closer look

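Among the 253 genes named in the text, each group of 4 libraries was searched for a library far from the other 3 by Dixon's criterion at 95% on log2(RPM + 1), which chance alone meets in about 1 in 20 groups. It was met by 26 of 506 groups (5.14%), 7 of them through replicate 1 of siVPS4B#2. Levels are in RPM, with the range of the other 3 libraries. In siVPS4A+B#2 the highest library stood off for ABAT in replicate 2 (6.89 against 4.64 to 4.86), DNAJB9 in replicate 3 (50.9 against 26.9 to 28.7) and PECAM1 in replicate 4 (0.607 against 0.160 to 0.215). In siVPS4A+B#2 the lowest library stood off for BAX in replicate 2 (117 against 142 to 145), BBC3 in replicate 4 (30.1 against 39.2 to 41.0), CCNB2 in replicate 4 (41.0 against 61.1 to 65.5), CXCL8 in replicate 3 (56.8 against 98.2 to 101) and IRF1 in replicate 4 (30.4 against 36.3 to 37.7). So it did for NFKBIE in replicate 3 (17.4 against 19.6 to 20.04), PGD in replicate 1 (559.7 against 622 to 633), REL in replicate 2 (17.9 against 21.5 to 22.3) and TSG101 in replicate 2 (131 against 138 in each). In siVPS4B#2 the highest library stood off for ABCG1 in replicate 2 (1.54 against 0.626 to 0.747), B2M in replicate 1 (561 against 474 to 487), IKBKG in replicate 4 (1.07 against 0.448 to 0.515), IL18 in replicate 2 (291 against 179 to 186) and IRF7 in replicate 1 (55.6 against 21.6 to 25). So it did for KLF4 in replicate 1 (28.2 against 15.7 to 17.3), NGFR in replicate 1 (105 against 54.3 to 59.6), PDGFRB in replicate 1 (1.10 against 0.412 to 0.485), SRXN1 in replicate 1 (66.1 against 53.4 to 54.9) and TNF in replicate 2 (0.206 against 0 in each). In siVPS4B#2 the lowest library stood off for DKK1 in replicate 3 (7.92 against 10.2 to 10.5), MAP3K14 in replicate 2 (4.63 against 8.61 to 9.03), NFKBIA in replicate 4 (57.3 against 70.7 to 73.6) and REL in replicate 1 (12.8 against 14.7 to 15.1).

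The effect of siVPS4A#1 was higher in siVPS4B#2 cells than in siCTRL#1 cells for 733 genes and lower for 492, by the test of the difference itself. The largest differences on the log2 scale were 4.33 for HMOX1, 3.90 for BIRC3, 3.70 for TNFRSF9, 3.21 for CXCL8 and 3.14 for SLC7A11, and on the other side -3.73 for MYBPH, -3.14 for TMT1A, -2.66 for PRR15L, -2.63 for SPARC and -2.20 for INPP5D, genes chosen among those that also passed the test in siVPS4B#2 cells. The effect was higher in the second than in the first pair for 373 genes and lower for 554. The largest of these differences were 3.48 for HMOX1, 2.33 for VGF, 2.31 for HMGA2, 2.22 for CCND3 and 1.95 for FKBP14, and -2.78 for MYBPH, -2.42 for MAN2B2, -2.25 for WNK1, -2.24 for CDC42SE2 and -2.23 for SPOPL.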

How the results depend on the processing

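The counts of 1502 genes that rose and 1601 that fell stayed within 1.5 times under all alternatives except limma's treat (289 and 270), which tests against a fold of 1.5, and a fold threshold of 2 (478 and 541), which by construction keep fewer genes. edgeR called 1668 and 1832, DESeq2 1633 and 1839, and leaving out replicates 1 to 4 gave 1184 to 1554 higher and 1353 to 1786 lower. With no replicate block the paired samples gave 1456 and 1545 for the main comparison, 520 and 352 for the difference from siVPS4A#1 alone and 253 and 395 for the difference from the first pair. The 2 differences depended more on the processing, and the cause was not tested. For the difference from siVPS4A#1 alone (733 higher, 492 lower), treat gave 17 and 8, a fold of 2 gave 317 and 213, only the conditions of the contrast 245 and 134, no TMM scaling 485 and 650, edgeR 872 and 795, DESeq2 897 and 912, and leaving out a replicate number or the library labelled siVPS4A#1 replicate 2 between 196 and 1217 higher and 128 and 1090 lower. For the difference from the first pair (373 higher, 554 lower), treat gave 10 and 13, a fold of 2 gave 177 and 325, DESeq2 617 and 823, and the same omissions between 77 and 681 higher and 127 and 922 lower. The fall of VPS4A kept its size without each replicate (-5.32 to -4.92, exact permutation p = 0.1, the smallest that 3 against 3 allows) and under sign flips within replicate pairs (replicate block, -5.16, exact p = 0.125, the smallest that 4 pairs allow). VPS4B kept its direction and stayed short of the threshold in all alternatives. Of the 191 named genes that passed the test, 90 lost their call under none of the 15 alternatives. Leaving aside treat and a fold of 2, 146 lost it under none. The filter at a mean of 5 RPM tested 215 of the 253 named genes, so the others could not lose a call there. No named gene reversed a called direction. Calls were lost for 44 genes without a replicate and for 20 under another setting, and a gene could be lost under several settings. The losses were 12 without TMM scaling, 8 with no replicate block, 5 with DESeq2 and 5 with a pseudocount of 0.1. There were 2 each with edgeR, with only the conditions of the contrast and without the library labelled siVPS4A#1 replicate 2, and 1 with DESeq2 size factors. A floor of 3 reads limits genes such as TNF, CSF2 and PRR15L. With 1 duplex against each target in this comparison, effects of VPS4A loss and of the duplex cannot be told apart.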

Other observations

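The letters TGACNNNGC of the antioxidant response element, which NRF2 binds, stood in 15.2% of the promoters of tested genes, 16.9% of those of genes that rose and 12.7% of those of genes that fell, and in 13.6% of all promoters in the table. The letters TCACNCCAC of the sterol regulatory element, which SREBP-2 binds, stood in 1.06%, 1.10%, 0.309% and 1.15%. Of the 17 matched promoters of the NRF2 list, 5 held the antioxidant response element. Of the 27 matched promoters of the sterol list, 1 held the sterol regulatory element. Both motifs were searched on both strands, and these shares are descriptions without a test.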
